A study of Mus musculus with 14 samples.

Results

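Expression of 10 genes that mark neutrophils was followed in the livers of high-fat-fed mice: S100a8, S100a9, Cxcr2, Ngp, Camp, Ltf, Retnlg, Il1b, Itgam and Csf3r. These 10 of 19938 genes with a probe set of their own were picked by symbol, and each of the 10 had exactly 1 probe set. None of them differed between livers from MSC-treated and saline-treated mice at an adjusted p under 0.05, and neither did any of the 23410 probe sets tested (limma). One MSC-treated mouse, HFM2, had the highest value of all 14 mice for 9 of the 10 genes, with S100a8 at 9.81 times, Ngp at 7.76 times and S100a9 at 4.81 times the median of the other 6 MSC-treated mice. Without that mouse the mean of the 10 genes differed by -0.03 (log2) between the groups, against 0.16 with it. With HFS5, the saline-treated mouse with the highest mean, left out as well, the difference was 0.05.

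The arrays measured RNA from flash-frozen liver of male C57BL/6 mice aged 24 weeks, all kept on high-fat feed for 20 weeks. The HFM group (n = 7) had received mesenchymal stem cells (MSCs) in the tail vein 24 hours before the liver was taken, and the HFS group (n = 7) had received saline. The MSCs were human, from the bone marrow of a single donor, and were given to mice with their own immune system. Each array held 1 mouse, so p-values set the group difference against the spread between these mice. The comparison asks what the liver expressed 1 day after the injection.

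Neutrophils are short-lived white blood cells that leave the bone marrow and are among the first to enter injured or infected tissue. They carry antimicrobial proteins in granules that are filled in a fixed order while the cell matures, so granule transcripts are richest in young cells, whereas receptors for chemokines and growth factors mark the mature cell. In the liver neutrophils pass through or lodge in the sinusoids beside the resident macrophages, the Kupffer cells. In whole liver, fewer neutrophils and less RNA per neutrophil cannot be told apart.

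Values are the deposited log2 signals, and a difference of 1 is a doubling. Array medians lay between 4.24 and 4.35, and pairs of arrays correlated with r of 0.970 to 0.991 across probe sets. HFM2 had a median r of 0.982 with the other arrays, and the lowest such value, 0.978, belonged to HFM3. The hepatocyte markers Alb, Ttr and Apoa1 averaged 13.4, 12.8 and 12.7 in HFM livers, against 13.5, 12.8 and 12.7 in HFS livers, near the top of the range. Of 23410 probe sets with a gene symbol, 836 (3.57%) were higher and 678 (2.9%) lower in HFM livers at an unadjusted p under 0.05 by limma. Once each array's median was subtracted, these counts were 1265 higher and 397 lower. By the exact permutation test 1490 (6.36%) had a p under 0.05, and 0 (0%) had an adjusted p under 0.05 by limma, where the lowest adjusted p was 0.305.

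S100a8 and S100a9 encode the 2 subunits of calprotectin, the most abundant protein of the neutrophil cytosol, which binds calcium and withholds zinc and manganese from microbes. S100a8 had a lowest, median and highest signal of 3.42, 3.57 and 6.84 in HFM livers, against 3.07, 3.59 and 4.71 in HFS livers. The 6.84 was that of HFM2 and the 4.71 that of HFS5, and the other 12 mice lay between 3.07 and 3.99, with the HFS mice reaching lower and HFM6 reaching higher than the other group. S100a8 averaged 4.06 ± 1.24 in HFM livers and 3.69 ± 0.515 in HFS livers (SD, n = 7 each), a difference of 0.38 ± 0.41 (standard error; limma adjusted p = 0.890, exact permutation p = 0.610, two-sided). The HFS mean was exceeded by only 2 of 7 HFM mice.

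S100a9 gave the same order of mice at the top. Its lowest, median and highest signals were 4.26, 4.79 and 7.00 in HFM livers, against 4.41, 4.61 and 5.48 in HFS livers. HFM2 and HFS5 again stood first and second, and HFM1 was the lowest mouse of all. The difference was 0.28 ± 0.30 (limma adjusted p = 0.887, exact permutation p = 0.584). Without HFM2 it was -0.05, and for S100a8 -0.08, so both genes changed sign with 1 mouse.

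The granule genes split. Ngp encodes neutrophilic granule protein, Ltf encodes the iron-binding lactoferrin and Camp encodes the cathelicidin precursor, all stored in the secondary granules of maturing neutrophils. Ngp had a lowest, median and highest signal of 2.83, 3.01 and 5.95 in HFM livers, against 2.76, 2.97 and 4.89 in HFS livers. HFM2 and HFS5 were again the highest mice, with HFM6 next at 3.56. Ngp averaged 3.53 ± 1.10 in HFM livers and 3.29 ± 0.74 in HFS livers (SD, n = 7 each), a difference of 0.24 ± 0.41 (limma adjusted p = 0.930, exact permutation p = 0.598) that was -0.16 without HFM2.

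Ltf separated HFM2 from every other mouse but left HFS5 among its group. Ltf ran from 3.49 over a median of 3.66 to 4.67 in HFM livers, against 3.67, 3.80 and 3.88 in HFS livers. The 4.67 of HFM2 was the only HFM value above the HFS mean, and the other 6 HFM mice lay at or below 3.74. With all mice the difference was -0.03 ± 0.14 (limma adjusted p = 0.976, exact permutation p = 0.955). Without HFM2 Ltf averaged 3.61 ± 0.09 in HFM livers (n = 6) and 3.79 ± 0.07 in HFS livers (n = 7). The difference was then -0.18 ± 0.06 (exact permutation p = 0.00291, limma adjusted p = 0.981 over all probe sets). HFM2 was picked out for its high values, so leaving it out lowers the HFM mean. These p-values are therefore no independent test.

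Camp did not follow the other 9 genes. It ran from 4.48 over a median of 4.68 to 4.80 in HFM livers, against 4.54, 4.68 and 4.90 in HFS livers, with the groups overlapping almost fully. HFS7 was its highest mouse, and HFM2 at 4.68 ranked 7 of 14. The difference was -0.05 ± 0.07 (limma adjusted p = 0.915, exact permutation p = 0.432). The whole Camp range over 12 mice other than HFM2 and HFS5 was 0.41, while that of Ngp was 0.80. Camp was read by 1 probe set, and how well that probe set responds to a change was not tested.

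The stretches just upstream of the start sites are shown for the 3 genes in which HFM2 stood out the most and for Camp, in which it did not. Each is the 150 bases before the RefSeq start site (GRCm38.p6), read 5′ to 3′ on the gene's own strand, with capitals marking matches to TTNNGNAA or its reverse complement TTNCNNAA, letters of the binding site of C/EBP factors, which drive granule genes during granulocyte maturation. S100a8 lies at chr3:90668921-90669070 on the plus strand, S100a9 at chr3:90695722-90695871 on the minus strand, Ngp at chr9:110419658-110419807 on the plus strand and Camp at chr9:109849457-109849606 on the minus strand.
S100a8: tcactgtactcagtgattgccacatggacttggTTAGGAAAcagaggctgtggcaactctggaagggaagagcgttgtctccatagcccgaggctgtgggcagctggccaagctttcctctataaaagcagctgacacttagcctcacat
S100a9: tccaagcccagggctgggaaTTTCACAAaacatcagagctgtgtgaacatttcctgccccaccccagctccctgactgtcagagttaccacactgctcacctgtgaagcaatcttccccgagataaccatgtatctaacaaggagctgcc
Ngp: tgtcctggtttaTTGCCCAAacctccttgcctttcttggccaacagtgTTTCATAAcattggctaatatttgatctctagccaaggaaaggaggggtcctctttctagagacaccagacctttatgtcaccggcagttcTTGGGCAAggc
Camp: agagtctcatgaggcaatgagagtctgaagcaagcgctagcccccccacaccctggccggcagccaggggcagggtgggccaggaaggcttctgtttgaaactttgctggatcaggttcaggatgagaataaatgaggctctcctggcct
S100a8 carries 1 match in this stretch, at -117 from the start, S100a9 carries 1 at -130, Ngp carries 3, at -138, -102 and -11, and Camp carries none. Over the full window of 250 bases before to 50 after the start, 7 of the 10 genes held the motif on either strand, beside 40.7% of 32851 RefSeq promoters of that length. The motif was absent from Camp, and also from Cxcr2 and Csf3r, in which HFM2 was the highest mouse. Whether these letters bear on the excess of HFM2 was not tested. The letters GAGGAA, a core bound by the myeloid factor PU.1, were in 5 of 10, beside 28.3%, and TATAAA was in 3 of 10, beside 13.6%. Within these 10 promoters the C/EBP and PU.1 letters overlapped only at 1 place, in Itgam. The S100a8 and S100a9 starts are 26.6 kb apart on chromosome 3 and on opposite strands, while on chromosome 9 Ngp starts 570.4 kb from Camp and 599.5 kb from Ltf.

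Retnlg encodes resistin-like gamma, a small secreted protein made by granulocytes of the mouse. Retnlg ran from 3.28 over a median of 3.50 to 4.79 in HFM livers, against 3.18, 3.59 and 3.84 in HFS livers. HFM2 and HFS5 were once more the first and second mice, with HFS7 close behind HFS5 at 3.71. The difference was 0.10 ± 0.18 (limma adjusted p = 0.936, exact permutation p = 0.775), and -0.09 without HFM2.

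**Figure D1:**
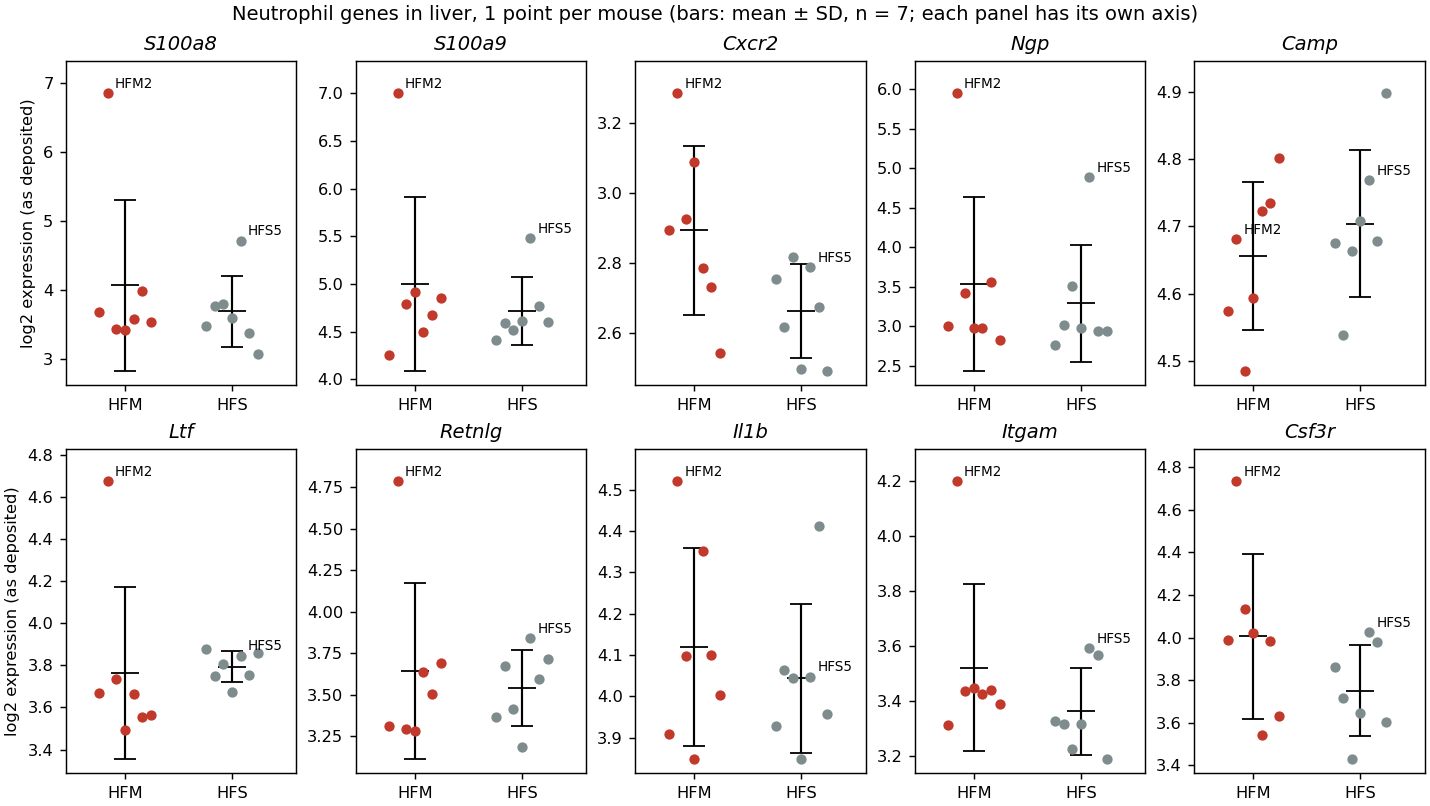
Log2 expression of the 10 neutrophil genes, 1 point per mouse, with HFM mice (red) to the left of HFS mice (grey), bars for the mean and SD (n = 7 each) and a separate vertical axis in each panel. HFM2 is the top point for every gene but Camp, and HFS5 is the top HFS point for S100a8, S100a9, Ngp, Retnlg, Itgam and Csf3r.

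Cxcr2 encodes the receptor for the chemokines that draw neutrophils out of the marrow and into tissue. Its lowest, median and highest signals were 2.54, 2.90 and 3.29 in HFM livers, against 2.49, 2.68 and 2.82 in HFS livers. Of the 7 HFM mice 4 lay above the highest HFS mouse and HFM7 lay near the bottom of the HFS range, so the groups overlapped in part. Cxcr2 averaged 2.89 ± 0.24 in HFM livers and 2.66 ± 0.13 in HFS livers (SD, n = 7 each), a difference of 0.23 ± 0.10 with an unadjusted exact permutation p of 0.0460 and a limma p of 0.0283, which came to 0.768 after adjustment over all probe sets. It was the 1 gene of the 10 that was higher at an unadjusted p under 0.05, beside 3.57% of all probe sets, and 0 of the 10 were lower, beside 2.9%. By limma that p exceeded 0.05 without HFM2 (0.0726), HFM4 (0.0642), HFS4 (0.0603) or HFS7 (0.0614). Its mean signal exceeded that of 10.6% of probe sets, and differences between signals that low may be compressed by background.

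Csf3r encodes the receptor for G-CSF, the growth factor that sustains neutrophil production. It ran from 3.54 over a median of 3.99 to 4.73 in HFM livers, against 3.43, 3.72 and 4.03 in HFS livers. HFM2 and HFM3 were above every HFS mouse, and HFM5 and HFM7 were among the low mice. The difference was 0.25 ± 0.14 (limma adjusted p = 0.797, exact permutation p = 0.153). It was 0.13 without HFM2.

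Itgam encodes CD11b, the alpha chain of the integrin by which neutrophils, monocytes and some macrophages adhere to vessel walls. Its lowest, median and highest signals were 3.31, 3.44 and 4.20 in HFM livers, against 3.19, 3.32 and 3.59 in HFS livers. The HFS mean was exceeded by 6 of 7 HFM mice, though only HFM2 was above every HFS mouse. The difference was 0.16 ± 0.11 (limma adjusted p = 0.832, exact permutation p = 0.255). Without HFM2 it was 0.05, and the HFM mean was 3.41 ± 0.05 (SD, n = 6).

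Il1b encodes interleukin-1 beta, a cytokine that neutrophils share with macrophages and monocytes. Il1b ran from 3.85 over a median of 4.10 to 4.52 in HFM livers, against 3.85, 4.05 and 4.41 in HFS livers. HFM2 was highest and HFS6 second, while HFS5 at 4.05 lay in the middle. The difference was 0.08 ± 0.10 (limma adjusted p = 0.914, exact permutation p = 0.518), and 0.01 without HFM2.

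Read as a set, 8 of the 10 genes had a difference above 0, beside 51.4% of all probe sets, and the median difference was 0.19, beside 0.00 over all probe sets. None of the 10 had both an unadjusted p under 0.01 and a change of at least 1.2-fold, beside 0.696% of all probe sets. These are the limits named in the study's methods, taken here without the Bonferroni correction that the methods add to them. The genes were also more variable than most, with a median standard error of 0.14 against 0.08 over all probe sets. Leaving HFM2 out brought this to 0.10 against 0.08. Without HFM2, 4 of the 10 were above 0, beside 50.7%, and the median difference was -0.05. In those 13 mice 0 of the 10 were higher at an unadjusted p under 0.05, beside 2.49%, and 1, Ltf, was lower, beside 2.13%. HFM2 was picked out for its high values, and leaving it out lowered the HFM mean of all 10 genes. With HFS5 left out as well, a choice made after the values were seen, 7 of the 10 were above 0. The median difference was then 0.08, beside 6.94e-04 over all probe sets, and S100a8, S100a9 and Ngp differed by 0.09, 0.08 and 0.11.

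**Figure D2:**
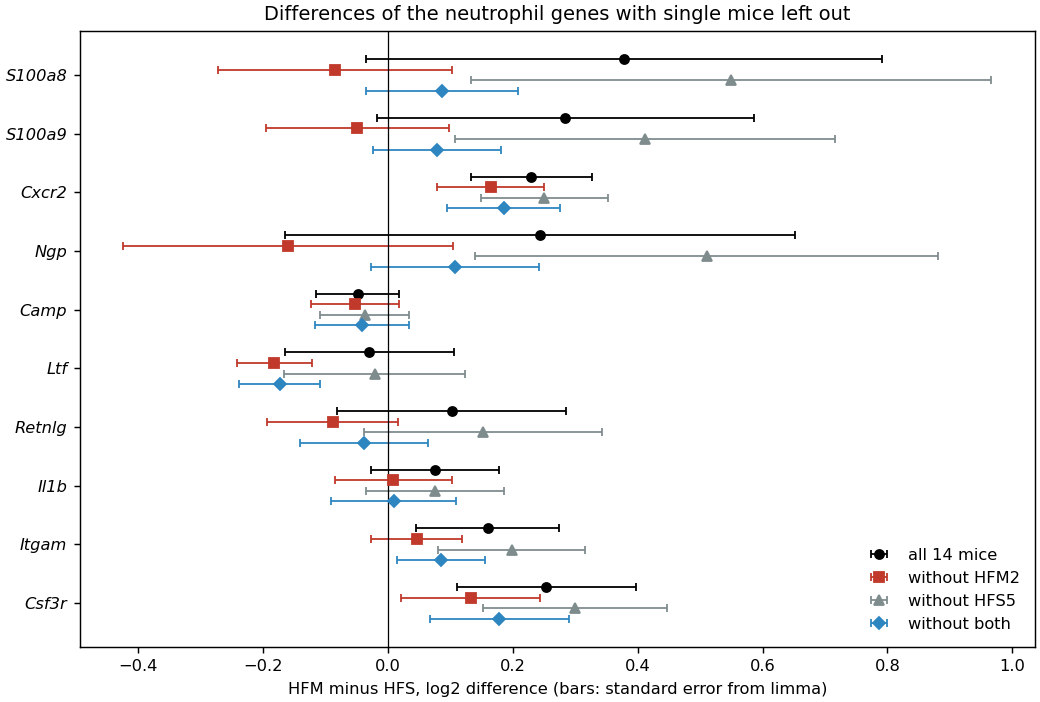
Differences (HFM minus HFS, log2) of the 10 neutrophil genes with standard errors from limma, for all 14 mice (black circles), without HFM2 (red squares), without HFS5 (grey triangles) and without both (blue diamonds). S100a8, S100a9, Ngp and Retnlg lie right of 0 with all mice and left of 0 without HFM2, while Ltf lies furthest below 0 without HFM2, at -0.18.

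The excess of HFM2 differed in size between the genes. Over the median of the other 6 HFM mice it was 3.29 (log2) for S100a8, 2.96 for Ngp, 2.26 for S100a9, 1.38 for Retnlg and 1.06 for Ltf. For Camp, a secondary granule gene like Ngp and Ltf, it was 0.02, the smallest of the 10. For the genes that macrophages and monocytes also express it was 0.77 for Itgam and 0.47 for Il1b, and for the receptors Csf3r and Cxcr2 it was 0.75 and 0.45. For comparison, the SD over the 12 mice other than HFM2 and HFS5 was between 0.11 for Itgam and 0.26 for Ngp. HFS5 exceeded the median of the other 6 HFS mice by 1.94 for Ngp, 1.18 for S100a8 and 0.88 for S100a9, or 3.83, 2.26 and 1.84 times. Its excess was at most 0.34 for the remaining 7 genes.

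HFM2 was highest in 9 of the 10 genes, beside 10.7% of all probe sets, and across mice the share of probe sets in which a mouse was highest ran from 3.46% for HFS5 to 18.6% for HFM3. HFM2 came first with HFS5 second in 5 of the 10 (S100a8, S100a9, Ngp, Retnlg and Itgam), beside 0.705% of all probe sets. Averaged over the 10 genes and set against the mean of all mice, HFM2 stood at 1.23 and HFS5 at 0.36, and the other 12 mice lay between -0.23 and -0.01. The group means of this value were 0.08 ± 0.51 in HFM livers and -0.08 ± 0.20 in HFS livers (SD, n = 7 each). Without HFM2 the HFM mean was -0.11 ± 0.06 (n = 6), and without HFS5 the HFS mean was -0.16 ± 0.06 (n = 6).

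The likeness of the 10 genes to each other across mice rested mostly on HFM2 and HFS5. Of 45 pairs of the 10 genes, 33 had a Pearson's r over 0.5 across the 14 mice, with a median r of 0.69 and a median Spearman's rho of 0.23. Across the 12 mice other than HFM2 and HFS5, 7 pairs did, with a median r of 0.04 and a median rho of -0.02. Most of the 10 genes have low signals, and near background a low r does not show that genes vary separately. No pair with Camp had an r over 0.5 in the 14 mice, though Camp and Retnlg had a rho of 0.56 there and an r of 0.52 across the 12. S100a8 and Ngp had r of 0.95 across the 14 mice and 0.56 across the 12, while S100a8 and S100a9 had 0.93 and -0.25.

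Outside the 10, the genes whose level across the 14 mice was most like the mean of the neutrophil genes, among 19928, were Shisa5 (r = 0.91), Mmp8 (0.91), Klra2 (0.90), Mpo (0.89), Tlr7 (0.88), Tacc1 (0.88), Lsp1 (0.88) and Ifitm6 (0.88). Mmp8, neutrophil collagenase, and Mpo, myeloperoxidase, are proteins of neutrophil granules. Mpo stood at 5.37 in HFM2 and 4.93 in HFS5, and in no other mouse above 4.69. Mmp8 stood at 3.67 in HFM2 and 3.12 in HFS5, and in no other mouse above 3.05. Across the other 12 mice r was 0.20 for Mpo and 0.16 for Mmp8, while it was 0.66 for Shisa5 and 0.67 for Tacc1, which are not neutrophil markers. With the group means taken out, 7 of these 8 genes were again among the first 8, with Sla in place of Tacc1. On that measure r across the 12 mice was 0.50 for Mmp8, 0.48 for Lsp1, 0.43 for Klra2 and 0.32 for Mpo. The group means taken out were those of all 14 mice, so these r still carry the excess of HFM2 and HFS5.

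Lists of further neutrophil genes were described in the same way. Of 8 genes listed with the primary granules, which are made earliest in maturation, 8 of 8 had a difference above 0. Of these, 0 had an unadjusted p under 0.05 (median difference 0.09, and 0.05 without HFM2). Not all genes of this list encode granule proteins. The smallest p-values of this list belonged to Ctsc, the protease that activates the granule proteases, and Prtn3, proteinase 3, which differed by 0.28 ± 0.19 and 0.12 ± 0.08 (limma adjusted p = 0.826 and 0.831). HFM2 was highest in 4 of these 8, and its mean over the list was 0.35 above that of all mice, followed by HFS5 at 0.19. Ctsc and Igsf6, which are not particular to neutrophils, were among those 4. Of 14 secondary and tertiary granule genes 11 had a difference above 0. For 2 of these, Lcn2 and Hp, which hepatocytes also make as acute-phase proteins, the unadjusted p was under 0.05, and without HFM2 this held for Lcn2 alone. Lcn2, lipocalin 2, ran from 10.4 over a median of 10.8 to 11.9 in HFM livers, against 8.37, 9.54 and 11.9 in HFS livers, a difference of 1.30 ± 0.41 (limma adjusted p = 0.714). The HFS mean of 9.76 was exceeded by all 7 HFM mice, and the 2 highest mice were HFS5 and HFM2. The list's median was 0.03, with HFM2 at 0.41 and HFS5 at 0.20 above the mean of all mice.

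Of 28 genes typical of circulating neutrophils 20 were measured, 9 with a difference above 0 and 2 higher at an unadjusted p under 0.05, Wfdc21 by 0.32 and Lrg1 by 0.40 (limma adjusted p = 0.767 and 0.768). Their signals averaged 9.50 and 10.6 in HFM livers, above those of 97.6% and 99.0% of probe sets, and Lrg1 is also an acute-phase protein of hepatocytes. The list's median was -0.02. HFM2 was highest in 2 of the 20 genes and ranked 4 for the list's mean, at 0.05, behind HFS5 at 0.11, which ranked first. Ly6g, the surface marker by which mouse neutrophils are usually identified, was highest in HFM2 at 3.27 and differed by 0.05 ± 0.12 between the groups (limma adjusted p = 0.955), and by -0.01 without HFM2.

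Ligands and partners of the 10 genes moved little. Of 31 listed, 29 were measured, 18 with a difference above 0 and 2 higher at an unadjusted p under 0.05, with a median of 0.03. Itgb2, the beta chain that pairs with CD11b, was higher by 0.34 ± 0.13 (limma adjusted p = 0.767) and Tlr4, a receptor for calprotectin, by 0.16 ± 0.08 (limma adjusted p = 0.772). Itgb2 kept a difference of 0.26 without HFM2. Cxcl1, a ligand of CXCR2, differed by 0.04 ± 0.14, and Csf3, which encodes G-CSF, by -0.07 ± 0.09 (limma adjusted p = 0.967 and 0.906). Among 9 transcription factors of the myeloid lineage 0 had an unadjusted p under 0.05, and Spi1, which encodes PU.1, differed by 0.32 ± 0.16 (limma adjusted p = 0.783) with HFM2 highest. Irf8, a factor of the monocyte branch, differed by 0.11.

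Markers of other cells were set beside these values. All 14 of 14 Kupffer cell and macrophage markers had a difference above 0, 5 of them (Mpeg1, Cd5l, C1qb, Cd68 and Marco) at an unadjusted p under 0.05, with a median of 0.29. Without HFM2 12 were above 0, 2 had a p under 0.05 and the median was 0.19. Their mean per mouse, relative to all mice, ran from -0.25 to 0.76 in HFM livers, against -0.51 to 0.53 in HFS livers. HFM2 was highest in 12 of the 14 markers, and HFS5 had the second highest mean. HFM6 followed at 0.51, although its neutrophil mean was -0.01. The defining Kupffer cell marker Clec4f averaged 7.83 ± 0.46 in HFM livers and 7.63 ± 0.41 in HFS livers (SD, n = 7 each). Summed on the linear scale the 14 markers ranged from 1542 to 3253 in HFM livers, against 1371 to 2767 in HFS livers. Their part in the result for the neutrophil genes was not tested.

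The monocyte markers (9 of 10 measured) gave HFM2 at 0.27 and HFS5 at 0.15, again the first and second mice, with a median difference of 0.00 and 5 of 9 above 0. Without HFM2 the median was -0.06 and 1 of 9 was above 0. The smallest p-values belonged to Spn and Ms4a4c, which differed by -0.15 and 0.21 (limma adjusted p = 0.808 and 0.812). Among the markers of eosinophils, basophils and mast cells HFM2 ranked 13 of 14 at -0.07, and among 5 erythroid genes measured of 13 it ranked 10, at -0.04. Among 9 hepatocyte markers measured of 10 it ranked 7, at 0.01. Single members of a list varied. Alas2, the erythroid enzyme of heme synthesis, was the 1 erythroid gene with a difference above 0. It stood at 7.46 in HFM2 and at 7.60 in HFS5, the second highest mouse, between a lowest of 6.82 and a highest of 7.69. Alas2 averaged 7.34 in HFM livers, while the other erythroid genes measured averaged 4.69 or less there. For the platelet and megakaryocyte genes, 6 measured of 9, HFM2 had the highest mean, 0.20, and was highest in 2 of the 6. Among these it was highest for Ppbp at 4.03 and Gp9 at 4.31, and lowest for Treml1 at 5.23. The part of blood cells in the neutrophil values was not tested.

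**Figure D3:**
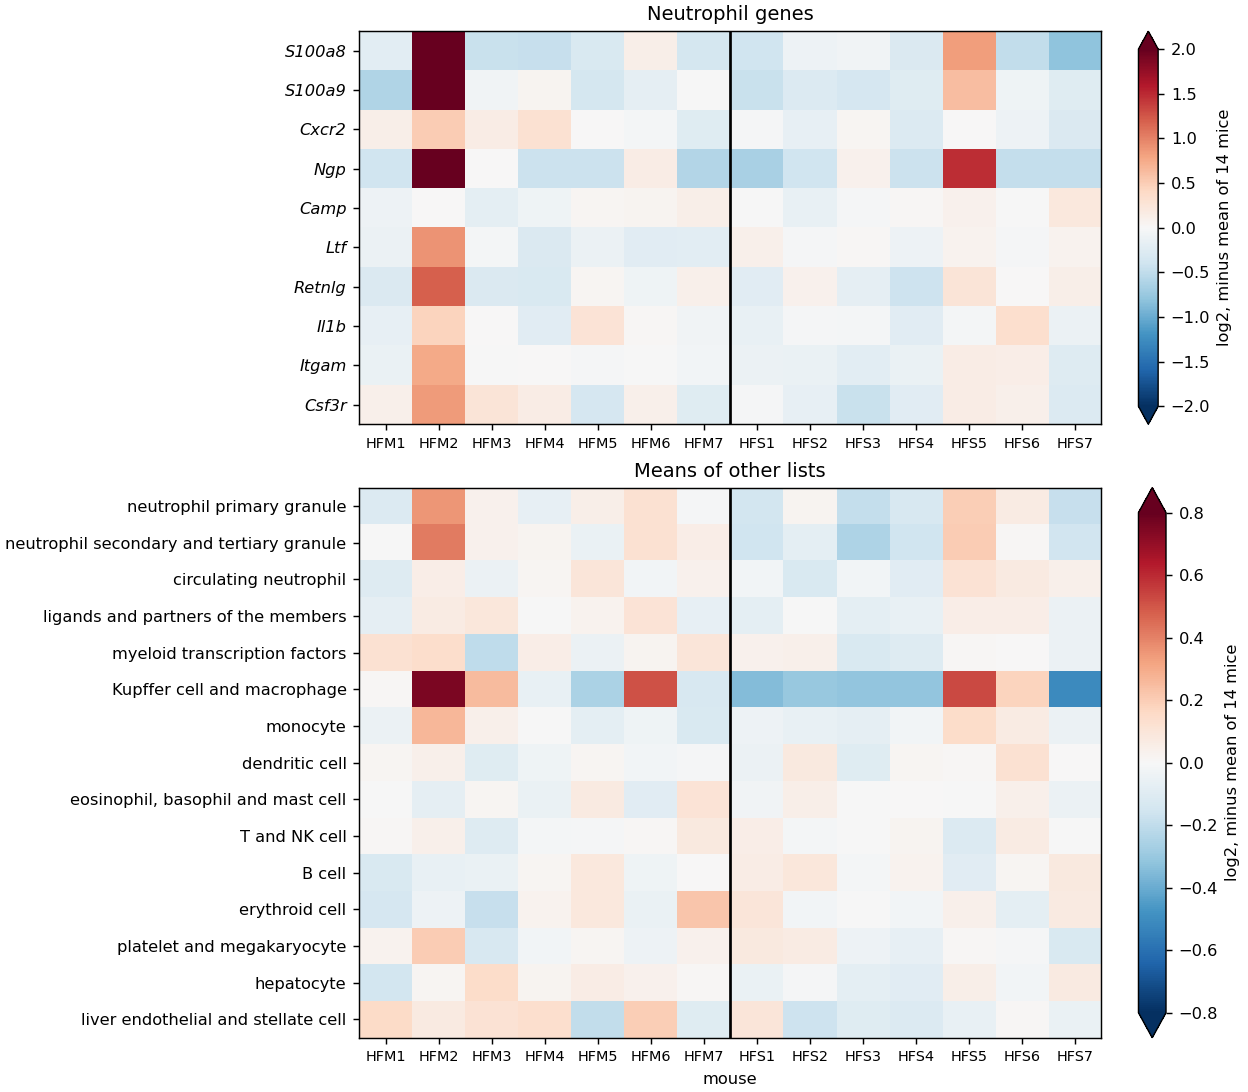
Values of each mouse relative to the mean of 14 mice (log2, colour, with HFM left and HFS right of the black line) for the 10 neutrophil genes in the upper block and for the means of 15 other gene lists in the lower block. HFM2 is dark red in S100a8, S100a9 and Ngp, where its values exceed the end of the colour scale, and HFS5 is red in the same rows and in the row of Kupffer cell and macrophage markers (0.53).

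**Figure D4:**
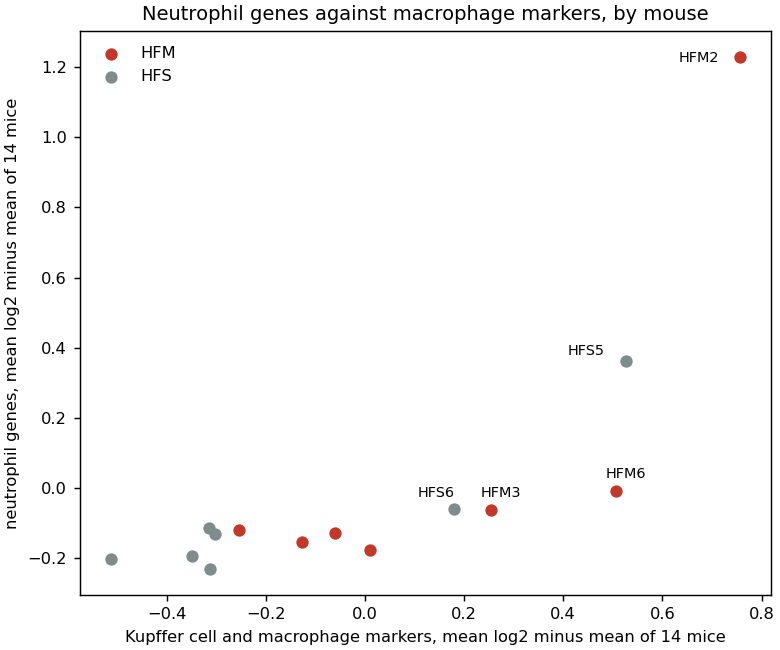
Mean of the 10 neutrophil genes (vertical) against the mean of 14 Kupffer cell and macrophage markers (horizontal), both log2 relative to the mean of 14 mice, 1 point per mouse with HFM red and HFS grey. HFM2 (0.76 and 1.23) and HFS5 (0.53 and 0.36) stand at the upper right, while HFM6 has a macrophage mean of 0.51 and a neutrophil mean of -0.01.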

How the data were processed

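Total RNA from 14 livers was hybridised to Affymetrix Mouse Gene 1.0 ST arrays, 1 mouse per array (7 HFM, 7 HFS). The deposited values are log2 expression signals, summarised and normalised across arrays by the authors in Affymetrix Expression Console. The labels name RMA and the methods name PLIER. Which one made these values, which version and which genome build were not given in the sources used here. Near background signals are less precise and may be compressed, depending on the method, so changes of low genes may be misjudged.

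Of 35556 rows, 23410 had at least 1 gene symbol (21789 with 1, 1621 with several). The groups were compared with limma (version 3.58.1, R 4.3.3) without covariates, with Benjamini-Hochberg adjustment over the 23410. A two-sided exact permutation test over all 3432 assignments (smallest p possible 5.83e-04) was added for single genes. Genes past the methods' limits (p under 0.01, 1.2-fold) were counted without the Bonferroni correction the methods also name. The neutrophil genes, the other lists and the comparisons were chosen with earlier results of these data known. Named genes were all 10 members, in each other list those with an unadjusted p under 0.05 and otherwise the 2 with the smallest p, and the 8 genes most like the members' mean, also with group means taken out. Ly6g, Cxcl1, Csf3, Clec4f, Alb, Ttr and Apoa1 were added, for their roles, after their values were seen. Igsf6, Gp9 and Treml1 were added for their values in HFM2. Promoter sequences and coordinates came from RefSeq (GRCm38.p6), in which 10 of 10 genes matched. The scripts were tested on simulated data. The number of arrays limits the precision. No scan date, litter or batch was given in the sources used here. Alternatives covered scaling, filters, the prior, probe set choice, a replicate block and each mouse left out in turn.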

Additional observations from a re-analysis of the deposited data

Results flagged for a closer look

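In 88 groups of 7 mice (20 of them for single neutrophil genes), the gap between the most extreme mouse and its neighbour was set against the whole range of the group. A share above Dixon's critical value for 7 values marks a mouse far from the others. For normally distributed values chance marks about 1 in 20 groups. The share of all probe sets marked this way was not counted, and HFM2 was highest in 10.7% of all probe sets. In HFM livers HFM2 was such a mouse for 6 of the neutrophil genes, with a gap of 0.834 of the range for S100a8, 0.761 for S100a9, 0.766 for Ngp, 0.795 for Ltf, 0.728 for Retnlg and 0.848 for Itgam, and of 0.88 for the mean of the 10 genes. In HFS livers HFS5 stood apart for S100a9 (0.661), Ngp (0.652) and the mean of the 10 genes (0.714). HFS6 stood apart in its group for Il1b, high by 0.62 of the range, and HFS3 for the basophil gene Mcpt8, high by 0.647. These genes share mice, so the values are not separate events.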

How the results depend on the processing

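With 1 mouse left out at a time, the number of neutrophil genes higher at an unadjusted p under 0.05 was between 0 and 2 instead of 1. It was 0 without HFM2, HFM4, HFS4 or HFS7, and 2 without HFM5 or HFM7, which add Csf3r. The number over all probe sets was 583, 675, 714 and 818 without HFM2, HFM4, HFS4 or HFS7. Without HFM5 or HFM7 it was 1265 and 1235, against 836 with all mice. The number lower was between 0 and 1 (Ltf, without HFM2) instead of 0, and the number past both limits (p under 0.01, 1.2-fold) between 0 and 1 (Cxcr2, without HFM7) instead of 0. The mean of the 10 genes differed by -0.026 without HFM2 to 0.24 without HFS5, and by 0.05 to 0.19 under the other alternatives. The sign turned without HFM2 for S100a8 (-0.085, up to 0.55 without other mice), S100a9 (-0.049, up to 0.41), Ngp (-0.16, up to 0.51) and Retnlg (-0.089, up to 0.16). Ltf lay between -0.18 without HFM2 and 0.015 without HFM4, and also above 0 without HFM6 (0.0049) or HFM7 (0.0037). With HFM2 and HFS5 both left out (chosen after seeing the data), 0 genes were higher and 1 lower, beside 584 and 515 over all probe sets. Retnlg then differed by -0.038. With brighter probe sets only, which leaves S100a9 and Camp, 0 were higher, beside 532 of 11705 probe sets. The number of neutrophil genes at an adjusted p under 0.05 was 0 under every alternative run, while over all probe sets it was 0 except without HFS6, where it was 1. Of 252 single-gene differences recomputed, 235 kept their direction and their side of the threshold, 8 turned, 5 lost and 4 gained the call. The cause was not tested.

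The labels number the mice 1 to 7 in both groups. The labels do not say that the numbers pair the mice. Deviations of same-numbered mice correlated by -0.20 to 0.14 over all probe sets, with 1 of 7 pairs over 0.1. This cannot exclude a weak pairing or one limited to some genes. With the replicate block, 1 neutrophil gene was higher and 0 lower, as without it, with 0 past both limits and 0 at an adjusted p under 0.05. Over all probe sets the block gave 733 higher and 591 lower, against 836 and 678 without it. The number past both limits over all probe sets was 163, between 92 without HFM2 and 359 without HFM5. The unmoderated test gave 75 and the exact permutation test 77. Most of the 10 genes lie in the lower part of the signal range, where background may compress differences.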

Other observations

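Other lists are given beside the 3.57% of all probe sets that were higher and the 2.9% that were lower in HFM livers at an unadjusted p under 0.05 (limma). Of 12 T and NK cell genes measured, Cd3g was higher by 0.22 and Prf1 differed by -0.16 in HFM livers at an unadjusted p under 0.05. Of 7 B cell genes measured, Blk and Cd79a both differed by -0.24 at an unadjusted p under 0.05, and without HFM2 1 gene of this list was lower and 1 higher. Of 8 dendritic cell genes, 10 eosinophil, basophil and mast cell genes and 12 liver endothelial and stellate cell genes, 0 had a p under 0.05 by limma. The smallest p-values belonged to Clec9a (0.24) and Flt3 (-0.13) in the first list, Mcpt8 (-0.13) and Il5ra (-0.07) in the second and Lyve1 (0.27) and Reln (0.20) in the third, given as log2 differences. Among erythroid genes they belonged to Alas2 (0.18) and Epb42 (-0.13), among platelet and megakaryocyte genes to Pf4 (-0.07) and Ppbp (0.11), and among hepatocyte genes to Alb (-0.09) and Fgb (0.14). The endothelial and stellate list had a median difference of 0.13, with 9 of 12 above 0.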
